A study of Homo sapiens with 12 samples.

Results

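The genes described here encode the subunits of the respiratory chain and the ATP synthase, read from both the mitochondrial and the nuclear genome. They were chosen by name: every gene whose symbol starts with MT-ND, MT-CO, MT-CYB, MT-ATP, NDUFA, NDUFB, NDUFC, NDUFS, NDUFV, UQCR, ATP5 or COX4 to COX8, or is SDHA, SDHB, SDHC or SDHD, without pseudogenes and without hyphenated antisense or readthrough names. This gave 109 of the 63241 genes in the table, 13 of them mitochondrially encoded and 96 nuclear. The name rule also takes in 8 assembly factors of complex I, whose symbols start with NDUFAF.

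The respiratory chain sits in the inner mitochondrial membrane. Complex I takes electrons from NADH and complex II from succinate, complex III passes them on to cytochrome c, and complex IV hands them to oxygen. The proton gradient built on the way drives complex V, the ATP synthase. Mammalian mitochondrial DNA is copied into long transcripts of both strands that are cut into the separate RNAs, and MT-ND6 is the one protein gene read from the strand opposite the others. All subunits of complex II and most subunits of the other complexes are made from nuclear genes. Gliomas have long been studied for how far they rely on respiration or on glycolysis.

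Polyadenylated RNA was sequenced from the human glioblastoma lines T98G and U251, both long kept in culture. The groups were T98G cells labelled PEPD-OE, T98G cells labelled NC, U251 cells labelled PEPD-OE and U251 cells labelled NC, with 3 libraries each. PEPD-OE stands for over-expression of PEPD, the peptidase that splits dipeptides ending in proline, and NC is not expanded in the labels. The vector, the length of over-expression and whether the cells were 1 clone or a pool were not stated, nor whether replicates were separate cultures, so p-values reflect no more than how these samples spread.

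The libraries held 464056 to 924204 counts (median 772232). PEPD itself averaged 159 ± 9.19 CPM (scaled counts per 1000000) in T98G PEPD-OE, against 10.6 ± 7.94 CPM in T98G NC, and 169 ± 10.6 CPM in U251 PEPD-OE, against 9.25 ± 3.33 CPM in U251 NC (SD, n = 3 each). Of 10 glioblastoma cell markers, 7 had at least 100 counts over the 12 libraries, and OLIG2 was at 0. That count pools the lines: SOX2, NES and FABP7 averaged 0.42, 6.08 and 0 CPM in T98G NC, against 369, 359 and 14.2 CPM in U251 NC. Among the 8 markers tested, 6 were called lower and 2 higher in T98G NC (edgeR, adjusted p under 0.05). Of all tested genes 24.3% were lower and 24.4% higher. The summed level of these 10 was 1170.3 to 1354 CPM in T98G PEPD-OE, 1592 to 1724 CPM in T98G NC, 3455 to 3981 CPM in U251 PEPD-OE and 4782 to 4909 CPM in U251 NC. Of 16 markers of other cell types, EPCAM, VWF, MOG and INS were at 0, and SYT1 alone reached 100 counts. The 16 together had 16.5 to 80.0 CPM in T98G PEPD-OE, 12.2 to 76.8 CPM in T98G NC, 43.6 to 62.8 CPM in U251 PEPD-OE and 21.2 to 31.0 CPM in U251 NC. Their part in the results below was not tested. In bulk RNA, fewer cells with a transcript and less of it per cell cannot be told apart.

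The strand of the counts bears on every value below. The library kit kept the strand of origin, but the strand setting of the counting is not given in the sources used here. Together the 96 nuclear members held 21445 counts over the 12 libraries, while several genes on the strand opposite a member held more than the member itself. AP001267.1, an antisense gene that shares exon bases with ATP5MG, held 13693 counts against 118 under ATP5MG. DALRD3, which lies opposite the assembly factor NDUFAF3, held 4438 counts against 83. RPS28, a ribosomal protein gene opposite NDUFA7, held 889 against 6. In GENCODE release 29, 38 of the 96 nuclear members share exon bases with a gene of the other strand. MT-ND6, the one gene of the 13 on the minus strand, had the highest counts per kb of the 13. The part of the strand setting in that rank and in its values was not tested. Which strand the counted reads came from was not tested either, so a value is given as counts under a gene's name.

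The 13 mitochondrially encoded genes took a larger share of all counts in T98G PEPD-OE than in T98G NC. In T98G their share came to 9.32%, 7.50% and 8.20% with PEPD-OE, against 6.01%, 5.76% and 4.94% with NC. Every T98G PEPD-OE library lay above every T98G NC library. In U251 the share was 5.19%, 3.51% and 3.44% in the PEPD-OE libraries, against 5.17%, 4.35% and 4.75% in the NC libraries. The first U251 PEPD-OE library lay above all U251 NC libraries and the other two lay below them. Replicate 1 had the highest share in every group.

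The mean share was 8.34 ± 0.920% in T98G PEPD-OE and 5.57 ± 0.559% in T98G NC (SD, n = 3 each), a log2 ratio of 0.58. The exact two-sided permutation test gave p = 0.1, which is the smallest p that 3 libraries against 3 can give. In U251 the mean share was 4.05 ± 0.988% in PEPD-OE and 4.76 ± 0.413% in NC, a log2 ratio of -0.23 (exact two-sided permutation p = 0.4, n = 3 each). Without the first U251 PEPD-OE replicate that ratio was -0.45. The 96 nuclear members together held only 0.212 ± 0.0112% of the counts in T98G PEPD-OE and 0.249 ± 0.00873% in T98G NC, and 0.224 ± 0.0266% in U251 PEPD-OE and 0.249 ± 0.0104% in U251 NC (SD, n = 3 each). In T98G their groups did not overlap, with a log2 ratio of -0.23 (exact two-sided permutation p = 0.1, n = 3 each). In U251 the ratio was -0.15 (exact two-sided permutation p = 0.2, n = 3 each). Shares are of unscaled counts, while the fold changes below are scaled by TMM. The TMM factors were 0.909 to 0.934 in T98G PEPD-OE and 1.05 to 1.08 in T98G NC.

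**Figure D1:**
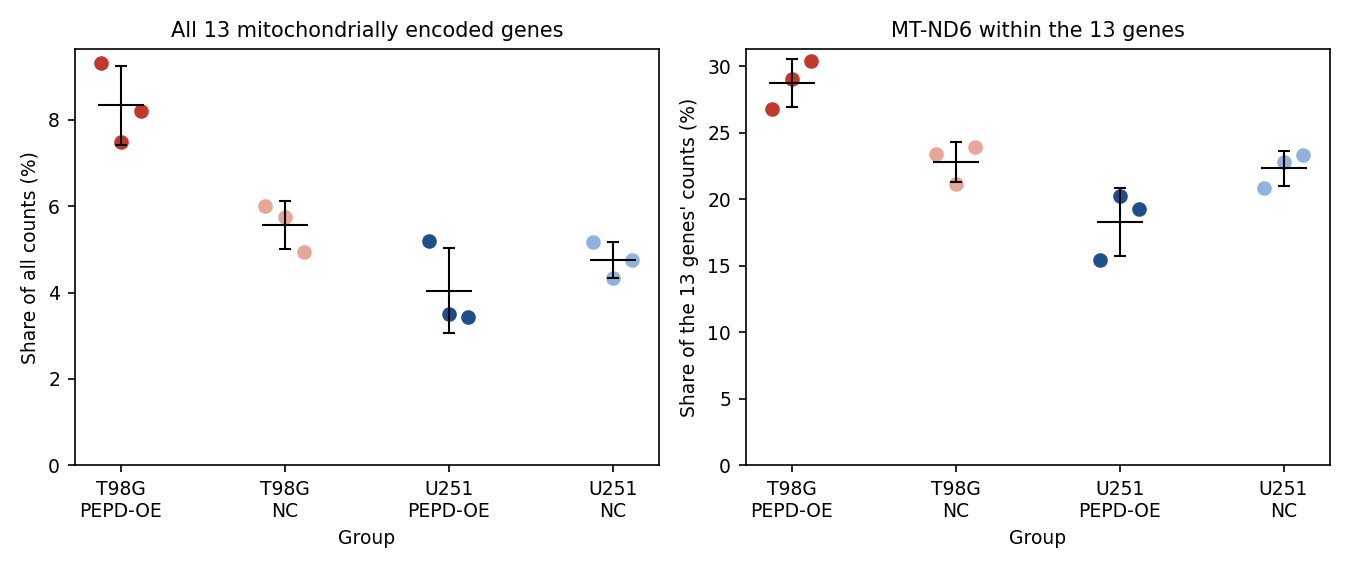
Left, the share of all counts under the 13 mitochondrially encoded genes, in percent; right, the share of those counts under MT-ND6, in percent. Points are libraries, with the group mean (bar) and SD (whiskers, n = 3). On the left the T98G PEPD-OE libraries sit between 7.50% and 9.32%, above all others, and the first U251 PEPD-OE library, at 5.19%, sits apart from the other two of its group.

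Gene by gene, 9 of the 13 rose in T98G PEPD-OE relative to NC and none fell, where edgeR called 17.6% of all 8773 tested genes higher, 14.7% lower and so 32.3% in either direction at an adjusted p under 0.05. The count of members called lower was also 0 at an unadjusted p under 0.05 and by DESeq2. These gave 1698 and 702 of the 8773 tested genes as lower. The median log2 fold change of the 13 was 0.61, against 0.00 over all tested genes. In 12 of the 13 the T98G groups did not overlap, with PEPD-OE higher, as in 22.6% of all tested genes. Leaving out 1 library at a time gave 6 to 10 genes called higher.

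In U251 none of the 13 rose and 5 fell, where 4.13% of all tested genes were called higher, 4.38% lower and so 8.5% in either direction. The count of members called higher was 0 at an unadjusted p under 0.05 and by DESeq2 as well. Of the 8773 tested genes these gave 911 and 136 as higher. All 13 log2 fold changes were below 0, with a median of -0.32 against 0.0029 over all tested genes. In MT-ND6, MT-CO1 and MT-ATP8 the U251 groups did not overlap, with PEPD-OE lower, as in 10.9% of all tested genes. The count called lower depended on the first U251 PEPD-OE library, without which 10 of the 13 were called lower. Replicate 1 had the highest share in every group, but the distance to the next library was largest in U251 PEPD-OE, at 5.19% against 3.51%. It was 9.32% against 8.20% in T98G PEPD-OE, 6.01% against 5.76% in T98G NC and 5.17% against 4.75% in U251 NC. With the replicate number as a block more of the 13 were called in both lines, with no library left out.

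The T98G change minus the U251 change was tested as a term of the same model. It was above 0 for all 13 genes and passed the threshold for 9 of them, where 14.1% of all tested genes were called higher and 13.6% lower. None of the 13 was called lower, which was also so at an unadjusted p under 0.05 and by DESeq2. Of the 8773 tested genes these gave 1636 and 608 as lower. The median difference was 1.01, against -0.023 over all tested genes. Without the first U251 PEPD-OE library all 13 passed.

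**Figure D2:**
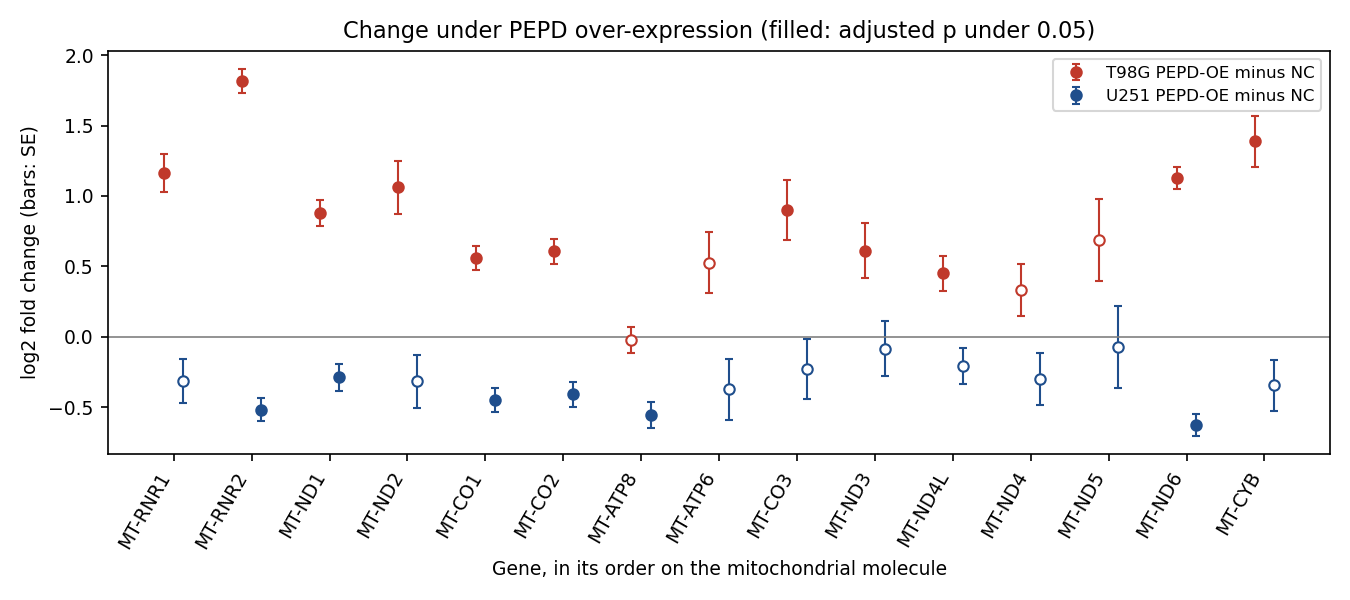
Log2 fold change, PEPD-OE minus NC, in T98G (red) and U251 (blue) for the mitochondrially encoded genes in their order on the molecule, with the 2 ribosomal RNA genes at the left. Whiskers are SEs and filled points have an adjusted p under 0.05. T98G points lie above 0 except MT-ATP8, at -0.026, and all U251 points lie below 0.

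Complex I has 7 mitochondrially encoded subunits, all of them in its membrane arm. MT-ND6 was the highest of the 13 per length in every group, with 49409 CPM per kb in T98G PEPD-OE, 22631 in T98G NC, 13347 in U251 PEPD-OE and 20576 in U251 NC. MT-ND5 came next, with 14619, 9094, 7204 and 7574 CPM per kb in the same groups. These are counts under a gene's name, and the part of the strand setting in this order was not tested. Because these 2 genes lie on opposite strands, both sequences are shown: the first 60 bases of each, in the sense of the gene's own RNA (GENCODE release 29, GRCh38), with every G in capitals.
MT-ND6 (M:14614-14673, minus strand): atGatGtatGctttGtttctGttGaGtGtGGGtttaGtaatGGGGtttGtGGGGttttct
MT-ND5 (M:12337-12396, plus strand): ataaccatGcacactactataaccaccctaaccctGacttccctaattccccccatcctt
Over its whole length MT-ND6 is 35.6% G, against 6.28% to 16.2% for the other 12 genes in the sense of their own RNAs.

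MT-ND6 (GRCh38 chromosome M, 14149 to 14673, minus strand) had 27475, 23699.9 and 26645 CPM in T98G PEPD-OE, against 13328, 11351 and 10964 CPM in T98G NC. U251 cells had 7967, 6688 and 6366 CPM in PEPD-OE, against 10992, 9850.0 and 11564 CPM in NC. In neither line did the groups overlap, and the directions were opposite. On the log2 scale the change was 1.13 (adjusted p = 1.26e-13, SE 0.078) in T98G and -0.62 (adjusted p = 6.46e-07, SE 0.078) in U251. The difference between the lines was 1.75 (adjusted p = 1.8e-14, SE 0.11).

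MT-ND6 moved further than the sum of the other 12. It made up 26.8%, 29.01% and 30.4% of the 13 genes' counts in T98G PEPD-OE, against 23.4%, 21.1% and 23.9% in T98G NC. In U251 it made up 15.4%, 20.2% and 19.3% in PEPD-OE, against 20.9%, 22.8% and 23.4% in NC. The groups did not overlap in either line (exact two-sided permutation p = 0.1 in each, n = 3 against 3, the smallest possible). This measure was chosen after its values were seen. Without MT-ND6, the share of all counts under the other 12 genes had a log2 ratio of 0.47 in T98G and -0.15 in U251.

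MT-ND5, a proton-pumping subunit at the far end of the membrane arm, had 31633, 24122 and 23715 CPM in T98G PEPD-OE, against 19000.0, 17404 and 13032 CPM in T98G NC. Its U251 values were 19431, 9991 and 9741 CPM in PEPD-OE, against 16092, 12162 and 12919 CPM in NC. The T98G groups did not overlap, while the first U251 PEPD-OE library lay above every U251 NC library and the other two below. Neither change passed the test: the log2 fold change was 0.69 (adjusted p = 0.115, SE 0.29) in T98G and -0.073 (adjusted p = 0.933, SE 0.29) in U251. Without the first U251 PEPD-OE library the U251 value was -0.48 (adjusted p = 0.276, edgeR), the T98G value was 0.68 and called (adjusted p = 0.0252, edgeR), and the difference between the lines was 1.16 and called (adjusted p = 0.0186, edgeR). With the replicate number as a block the T98G change (adjusted p = 0.0116, edgeR) and the difference (adjusted p = 0.0299, edgeR) were called. Over all alternatives the U251 value ran from -0.48 to 0.095, so its sign was not stable.

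MT-ND4, another proton-pumping subunit, had 12188, 9250.2 and 11266 CPM in T98G PEPD-OE, against 8949, 9181 and 7889.9 CPM in T98G NC. It had 7518, 4969.9 and 5076 CPM in U251 PEPD-OE, against 7823, 6104 and 7672 CPM in U251 NC. Its T98G groups were separate by a narrow margin and its U251 groups overlapped. Relative to NC the log2 fold change was 0.33 (adjusted p = 0.227, SE 0.19) in T98G and -0.30 (adjusted p = 0.433, SE 0.19) in U251. With no filter on low counts the T98G change was called (adjusted p = 0.00741, edgeR). A block for the replicate number also called it (0.32, adjusted p = 0.000834, edgeR). That block called the U251 change too (-0.31, adjusted p = 0.00439, edgeR). Both runs also called the difference between the lines (adjusted p = 0.000165 and 3.72e-06, edgeR). With the first U251 PEPD-OE library left out the U251 value was -0.52 and not called, and the difference between the lines, 0.63 (adjusted p = 0.119, SE 0.26) with all libraries, was 0.85 and called (adjusted p = 0.0163, edgeR).

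MT-ND4L, whose reading frame runs into that of MT-ND4 by 7 bases, had 398, 358 and 386 CPM in T98G PEPD-OE, against 288, 305 and 245 CPM in T98G NC. In U251 it had 285, 195 and 188 CPM in PEPD-OE, against 311, 206 and 243 CPM in NC. Only the T98G groups were separate. Its log2 fold change was 0.45 (adjusted p = 0.00235, SE 0.12) in T98G and -0.21 (adjusted p = 0.377, SE 0.13) in U251. The T98G call was lost without the third T98G NC library (adjusted p = 0.0582, edgeR) and with DESeq2 (adjusted p = 0.0562), and over all alternatives the adjusted p ran from 0.000135 to 0.0582. The difference between the lines was 0.66 (adjusted p = 0.00231, SE 0.18), and it was not called without the first U251 NC library (adjusted p = 0.0539, edgeR). In U251 the value was -0.41 without the first PEPD-OE library (adjusted p = 0.0334, edgeR).

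MT-ND1, which lines the ubiquinone channel, had 2571, 2037 and 2174 CPM in T98G PEPD-OE, against 1291, 1295 and 1103 CPM in T98G NC. It had 1305, 942 and 1012 CPM in U251 PEPD-OE, against 1392, 1153 and 1428 CPM in U251 NC. The T98G groups were far apart and the U251 groups overlapped. The change was a log2 fold change of 0.88 (adjusted p = 7.5e-13, SE 0.094) in T98G and -0.29 (adjusted p = 0.038, SE 0.094) in U251. The U251 call was lost without the second or the third U251 PEPD-OE library or the first or the third U251 NC library, with adjusted p-values of 0.295, 0.191, 0.192 and 0.247, and over all alternatives its adjusted p ran from 7.46e-05 to 0.295. It was also lost with DESeq2 (adjusted p = 0.0645), with no filter on low counts, with U251 fitted alone and without genes that share exon bases across strands.

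MT-ND2, likewise a proton-pumping subunit, had 3052, 2213 and 2341 CPM in T98G PEPD-OE, against 1287, 1269 and 1094 CPM in T98G NC. It had 1408, 918 and 929 CPM in U251 PEPD-OE, against 1342, 1220.3 and 1478 CPM in U251 NC. As with MT-ND5, the first U251 PEPD-OE library stood above the other two of its group. On the log2 scale the change was 1.06 (adjusted p = 0.00198, SE 0.19) in T98G and -0.32 (adjusted p = 0.408, SE 0.19) in U251. Leaving out that library gave a U251 value of -0.54 (adjusted p = 0.000257, edgeR). The U251 change was also called with no filter on low counts and with U251 fitted alone. A block for the replicate number called it too (-0.34, adjusted p = 0.00331, edgeR).

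MT-ND3, a small subunit at the joint of its arms, had 1481, 1207 and 1171 CPM in T98G PEPD-OE, against 905, 873 and 753 CPM in T98G NC. It had 1129.6, 712 and 696 CPM in U251 PEPD-OE, against 1033, 791 and 852 CPM in U251 NC. In T98G the groups were separate and the first U251 PEPD-OE library was again the highest of its line. The log2 fold change was 0.61 (adjusted p = 0.0392, SE 0.20) in T98G and -0.084 (adjusted p = 0.876, SE 0.20) in U251. The T98G call was lost without the first or second T98G PEPD-OE library, without any of the T98G NC libraries and without the third U251 NC library, and its adjusted p ran from 4.30e-10 to 0.111 over all alternatives. The U251 value was -0.084 with all libraries, and without the first U251 PEPD-OE library it was -0.34 (adjusted p = 0.00954, edgeR).

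Complex III has a single mitochondrially encoded subunit, MT-CYB, the cytochrome b that carries electrons across the membrane. It had 8112, 6102 and 6454 CPM in T98G PEPD-OE, against 2673, 2818 and 2397 CPM in T98G NC. U251 cells had 3266, 2092 and 2215 CPM in PEPD-OE, against 3438, 3071 and 3102 CPM in NC. Every T98G PEPD-OE library exceeded every T98G NC library by a wide margin, and the U251 groups overlapped through the first PEPD-OE library. The fitted log2 fold change was 1.39 (adjusted p = 0.000361, SE 0.18) in T98G, which was the highest of the 13 genes in that line. It was -0.35 (adjusted p = 0.339, SE 0.18) in U251, and the difference between the lines was 1.74 (adjusted p = 0.000946, SE 0.25). Its U251 value was -0.57 without that library (adjusted p = 5.9e-06, edgeR). The U251 change was also called with no filter on low counts and with U251 fitted alone. With the replicate number as a block it was -0.36 and called (adjusted p = 0.000171, edgeR). Among the 13 genes, MT-ND6 lies between MT-ND5, which ends at 14148, and MT-CYB, which starts at 14747, both on the other strand.

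Complex IV has 3 mitochondrially encoded subunits, which form its catalytic core, and all 3 rose in T98G, as did 17.6% of all tested genes. MT-CO1, which holds the site where oxygen is reduced, had 2618, 2034 and 2218 CPM in T98G PEPD-OE, against 1516, 1624 and 1527 CPM in T98G NC. It had 1496, 1151 and 1368 CPM in U251 PEPD-OE, against 1857, 1653 and 1964 CPM in U251 NC. The groups were separate in both lines, in opposite directions. The change was a log2 fold change of 0.56 (adjusted p = 9.58e-09, SE 0.084) in T98G and -0.45 (adjusted p = 2.64e-05, SE 0.084) in U251.

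MT-CO2, which takes up electrons from cytochrome c, had 2577, 2228 and 2505 CPM in T98G PEPD-OE, against 1733, 1593 and 1475 CPM in T98G NC. It had 1586, 1133 and 1139 CPM in U251 PEPD-OE, against 1745, 1536 and 1834 CPM in U251 NC. The T98G groups were separate, and in U251 the first PEPD-OE library lay inside the range of NC. Its log2 fold change was 0.61 (adjusted p = 1.19e-08, SE 0.089) in T98G and -0.41 (adjusted p = 0.000595, SE 0.089) in U251.

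MT-CO3, the third core subunit, had 7047, 5507 and 5741 CPM in T98G PEPD-OE, against 3537, 3438 and 2828 CPM in T98G NC. It had 4213, 2411 and 2569.9 CPM in U251 PEPD-OE, against 3837, 3334 and 3592 CPM in U251 NC. In T98G the groups were separate, and the first U251 PEPD-OE library was above all U251 NC libraries. Relative to NC the log2 fold change was 0.90 (adjusted p = 0.0119, SE 0.22) in T98G and -0.23 (adjusted p = 0.64, SE 0.21) in U251. The T98G call was lost without the third T98G NC library (adjusted p = 0.0524, edgeR; 6.38e-16 to 0.0524 over all alternatives). Without the first U251 PEPD-OE library the U251 value was -0.53 (adjusted p = 0.000892, edgeR). With the replicate number as a block it was -0.26 and called (adjusted p = 0.0292, edgeR). The difference between the lines was 1.13 (adjusted p = 0.024, SE 0.30). It was not called without the first T98G PEPD-OE, the third T98G NC, the third U251 PEPD-OE, or the first or the third U251 NC library, with adjusted p-values from 0.0515 to 0.0622.

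Complex V has 2 mitochondrially encoded subunits, both in its membrane part. MT-ATP8 and MT-ATP6 overlap on the molecule, and reads that cover the shared stretch belong to both. These are the 46 shared bases (GENCODE release 29, GRCh38, M:8527-8572, plus strand), all in capitals.
MT-ATP8 and MT-ATP6: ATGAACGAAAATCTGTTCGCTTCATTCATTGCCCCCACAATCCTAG
How such reads were counted is not given in the sources used here.

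MT-ATP8 was the one of the 13 whose T98G groups overlapped. It had 991, 1016 and 1139 CPM in T98G PEPD-OE, against 928, 1204 and 1062 CPM in T98G NC. Its U251 values were 854, 969 and 919 CPM in PEPD-OE, against 1603, 1144 and 1283 CPM in NC, and the groups did not overlap. The fitted log2 fold change was -0.026 (adjusted p = 0.866, SE 0.093) in T98G and -0.56 (adjusted p = 1.48e-06, SE 0.092) in U251. The sign in T98G was not stable, at -0.11 to 0.063 over the alternatives.

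MT-ATP6, the subunit of the proton channel, had 2392, 1932 and 2031 CPM in T98G PEPD-OE, against 1563, 1407 and 1448 CPM in T98G NC. It had 1261, 872 and 792 CPM in U251 PEPD-OE, against 1247, 953 and 1578 CPM in U251 NC. The T98G groups were separate and the U251 groups overlapped. Neither change passed the test, with a log2 fold change of 0.53 (adjusted p = 0.103, SE 0.22) in T98G and -0.37 (adjusted p = 0.404, SE 0.22) in U251. The T98G change was called with T98G fitted alone (0.50, adjusted p = 4.53e-10, edgeR), with no filter on low counts (0.53, adjusted p = 4.01e-05, edgeR) and without the second U251 NC library (0.53, adjusted p = 0.0458, edgeR), and over all alternatives its adjusted p ran from 4.53e-10 to 0.261. The U251 change was called with no filter (-0.38, adjusted p = 0.035, edgeR), and was -0.60 and not called without the first U251 PEPD-OE library. Between the lines the difference, 0.90 (adjusted p = 0.0628, SE 0.31), was called with DESeq2 (adjusted p = 0.0393), with no filter, and without the second U251 NC or the first U251 PEPD-OE library. A block for the replicate number called the T98G change (0.52, adjusted p = 0.0138, edgeR) and the difference (0.90, adjusted p = 0.00496, edgeR).

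The genes of the 2 mitochondrial ribosomal RNAs, which are no members, lie upstream of MT-ND1, and both rose in T98G. MT-RNR2, the large ribosomal RNA, had 4181, 4547 and 4317 CPM in T98G PEPD-OE, against 1101, 1488 and 1103 CPM in T98G NC. In U251 it had 1046, 1060.4 and 1165 CPM in PEPD-OE, against 1644, 1432 and 1612 CPM in NC. The groups were separate in both lines, in opposite directions. Its log2 fold change was 1.82 (adjusted p = 4.34e-46, SE 0.084) in T98G and -0.52 (adjusted p = 4.87e-07, SE 0.083) in U251, and the difference between the lines was 2.34 (adjusted p = 1.34e-41, SE 0.12). MT-RNR1, the small ribosomal RNA, had a log2 fold change of 1.17 (adjusted p = 2.4e-13, SE 0.14) in T98G and -0.31 (adjusted p = 0.238, SE 0.16) in U251. The 22 mitochondrial tRNA genes held 5 counts in all. Nuclear pseudogene copies of mitochondrial genes, 404 in number, held 4791 counts, of which MTATP6P1 took 3058 and MTCO1P12 took 888, so reads shared with such copies make the levels of MT-ATP6 and MT-CO1 uncertain.

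**Figure D3:**
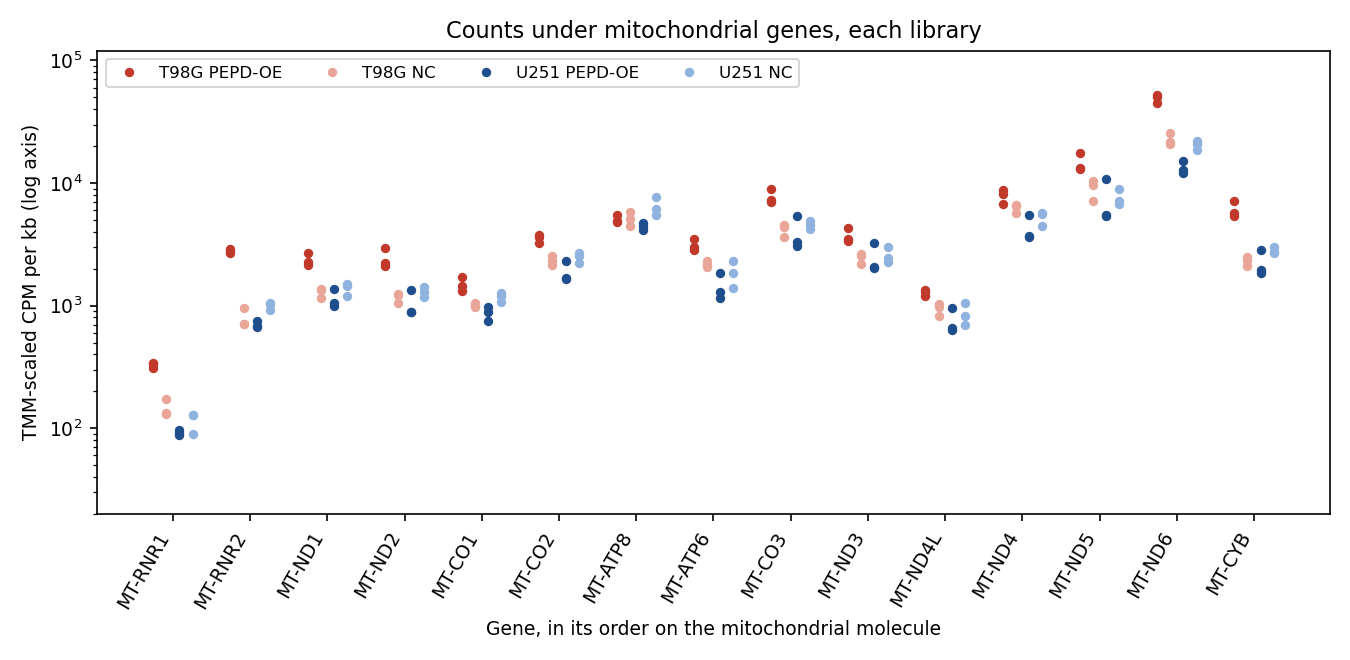
TMM-scaled CPM per kb of exon, on a log axis, for the 13 mitochondrially encoded genes and the 2 ribosomal RNA genes in their order on the molecule. Each point is a library, coloured by group. MT-ND6 is the highest in every group, and T98G PEPD-OE lies above the other groups for every gene but MT-ATP8.

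The 13 genes held 513267 counts over the 12 libraries, 8596 to 233897 per kb with a median of 25168. The 96 nuclear members held a median of 55.3 and at most 1172 counts per kb. Of the 96, 62 had enough counts to be tested, with a median of 21 counts in a library, and for a single member the median over libraries lay between 5.5 and 137. The 34 members not tested had at most 108 counts over the 12 libraries: 5 were at 0, 3 had fewer than 10 counts and 26 had at least 10.

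The nuclear members had a median near 0 in T98G, unlike the 13, and in U251 a median below 0 like that of the 13. In T98G 1 of the 62 tested rose and none fell, against 17.6% and 14.7% of all tested genes, and the median log2 fold change was -0.082. At an unadjusted p under 0.05 there were 2 higher and 2 lower, and DESeq2 called none in either direction. Over all 8773 tested genes these counts were 1887 and 1698 unadjusted, and 883 and 702 by DESeq2. In U251 none rose and 2 fell, against 4.13% and 4.38% of all tested genes, and 52 of the 62 log2 fold changes were below 0, with a median of -0.31 against -0.32 for the 13. Over all tested genes 4323 of 8773 were below 0 in U251, with a median of 0.0029. At an unadjusted p under 0.05 there were 1 higher and 8 lower in U251, and DESeq2 called 0 higher and 1 lower. Over all 8773 tested genes these counts were 911 and 886 unadjusted, and 136 and 239 by DESeq2. Without the first T98G PEPD-OE library 2 nuclear members were called lower in T98G, and without the second T98G PEPD-OE or the second T98G NC library 1 was. The call of the 1 that rose, NDUFS7, is taken up with its values.

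The difference between the lines passed the threshold for 5 nuclear members, 4 higher and 1 lower, against 14.1% and 13.6% of all tested genes, with a median of 0.26. By DESeq2 these counts were 1 and 0, against 728 and 608 of all 8773 tested genes. The 4 were ATP5PD, UQCRB, NDUFB4 and NDUFS7, and the 1 was NDUFC1. Without the first U251 NC library 2 were called higher in place of 4, and without the third T98G PEPD-OE library 2 were called lower in place of 1.

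Nuclear genes of the respiratory chain are known to share promoter elements for NRF1, for ETS factors such as GABPA and for YY1. The promoters of 3 of the 5 called members, NDUFS7, NDUFB4 and ATP5PD, are shown for that reason, 250 bases before to 50 after the gene start (RefSeq, GRCh38.p14), with capitals at letters of these factors on either strand. The strings searched were GCATGCGC for NRF1 and AAGATGGCG for YY1. For the ETS family, whose members bind a purine-rich core in many promoters, the string was CCGGAAG. The box bound by the TATA-binding protein was searched as TATAAA, also on either strand.
NDUFS7 (chr19:1383657-1383956, plus strand): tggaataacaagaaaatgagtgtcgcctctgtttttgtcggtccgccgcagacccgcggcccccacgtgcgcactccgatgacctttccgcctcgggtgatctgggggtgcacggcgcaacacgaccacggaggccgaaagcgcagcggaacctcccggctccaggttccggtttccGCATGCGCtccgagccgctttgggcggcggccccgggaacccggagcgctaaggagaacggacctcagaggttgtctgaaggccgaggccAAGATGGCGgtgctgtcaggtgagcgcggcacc
NDUFB4 (chr3:120596086-120596385, plus strand): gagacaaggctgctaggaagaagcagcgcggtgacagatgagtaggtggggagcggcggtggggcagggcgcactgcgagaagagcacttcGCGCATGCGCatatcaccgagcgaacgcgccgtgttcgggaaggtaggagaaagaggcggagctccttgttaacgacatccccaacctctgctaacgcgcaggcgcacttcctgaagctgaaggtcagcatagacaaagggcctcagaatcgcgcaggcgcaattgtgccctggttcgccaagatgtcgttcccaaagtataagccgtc
ATP5PD (chr17:75046920-75047219, minus strand): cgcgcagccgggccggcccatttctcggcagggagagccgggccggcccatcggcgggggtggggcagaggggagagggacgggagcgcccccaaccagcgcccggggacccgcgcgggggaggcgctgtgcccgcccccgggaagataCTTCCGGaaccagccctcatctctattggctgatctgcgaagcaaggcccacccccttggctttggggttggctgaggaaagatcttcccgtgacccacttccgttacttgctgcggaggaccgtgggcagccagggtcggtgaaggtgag
NDUFS7 held the NRF1 letters 73 bases before the start and the YY1 letters 17 bases after it. NDUFB4 held the NRF1 letters on both strands, overlapping to a palindrome, and ATP5PD held the ETS letters on the other strand, where they read as the reverse complement. The 4 windows of NDUFC1 held none of these letters and are not printed, and none is shown for UQCRB.

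RefSeq windows matched 77 of the 96 nuclear members, 95 windows in all. The NRF1 letters stood in 17.9% of them and in 3.05% of all 35116 promoter windows of the table. The ETS letters stood in 26.3% of member windows and 10.3% of all, the YY1 letters in 12.6% and 1.75%, and the TATA letters in 7.37% and 11.5%. These 4 were chosen after the shares of 11 letter strings had been seen. The other 7 overlap them in part or are common elements: a palindromic NRF1 string in 5.26% of member windows and 1.24% of all, a shifted NRF1 string in 6.32% and 1.08%, CCGGAAGTG in 4.21% and 2.36%, AAGATGGC in 15.8% and 2.89%, GGGCGG in 61.1% and 45.0%, CCAAT in 36.8% and 34.6%, and TGACGTCA in 5.26% and 1.85%. These shares describe letters only, and members with the NRF1 letters included NDUFS7 and NDUFB4 as well as SDHB and COX5B, which passed in neither line.

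Of the 7 nuclear core subunits of complex I, 5 were tested. Their log2 fold changes ran from -0.50 to 0.54 in T98G and from -0.39 to 0.22 in U251. NDUFV1, which binds NADH, had the most counts per length of the 7, with 61.4 ± 4.85 CPM in T98G PEPD-OE, 50.1 ± 5.98 CPM in T98G NC, 39.0 ± 5.20 CPM in U251 PEPD-OE and 42.0 ± 7.26 CPM in U251 NC (SD, n = 3 each). On the log2 scale the change was 0.28 (adjusted p = 0.34, SE 0.21) in T98G and -0.10 (adjusted p = 0.867, SE 0.22) in U251.

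NDUFS7, the subunit with the iron-sulfur cluster that passes electrons to ubiquinone, was the one nuclear member that rose in T98G (GRCh38 chromosome 19, 1383527 to 1395589, plus strand). It had 77.4, 79.99 and 78.6 CPM in T98G PEPD-OE, against 57.2, 55.4 and 51.0 CPM in T98G NC. U251 cells had 43.8, 48.6 and 69.5 CPM in PEPD-OE, against 77.0, 61.1 and 64.5 CPM in NC. In T98G the groups were separate and the U251 groups overlapped. Relative to NC the log2 fold change was 0.54 (adjusted p = 0.0271, SE 0.20) in T98G and -0.30 (adjusted p = 0.391, SE 0.19) in U251, and the difference between the lines was 0.84 (adjusted p = 0.0136, SE 0.27).

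The T98G call of NDUFS7 was lost without any of the T98G PEPD-OE libraries and without the second or the third T98G NC library, with edgeR adjusted p-values from 0.0534 to 0.117. With DESeq2 the adjusted p was 0.199, and over all alternatives it ran from 0.0228 to 0.199. The difference between lines was not called without the first U251 NC library (adjusted p = 0.0605, edgeR) or with DESeq2 (adjusted p = 0.112). The antisense genes AC005329.1 and AC005329.3 share exon bases with NDUFS7 and held 1010 and 156 counts, against 584 under NDUFS7. AC005329.1 moved likewise, with 91.7, 81.5 and 84.1 CPM in T98G PEPD-OE, against 65.4, 56.6 and 60.8 CPM in T98G NC, a log2 fold change of 0.51 (adjusted p = 0.0298, SE 0.19, edgeR). In U251 AC005329.1 had a log2 fold change of -0.31 (adjusted p = 0.181, SE 0.14, edgeR). Its difference between the lines was 0.82 (adjusted p = 0.00464, SE 0.24, edgeR). Counts of the genes on both strands of this locus cannot be told apart without the strand setting.

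Of the 30 accessory subunits of complex I, 22 were tested. None passed in either line, where 17.6% and 14.7% of all tested genes rose and fell in T98G, and 4.13% and 4.38% in U251. At an unadjusted p under 0.05, 1 of the 22 was higher and 2 were lower in T98G, and likewise in U251. Over all 8773 tested genes these counts were 1887 and 1698 in T98G, and 911 and 886 in U251. DESeq2 called none of the 22. Their log2 fold changes ran from -0.89 to 0.64 in T98G and from -0.65 to 0.58 in U251. NDUFS5 had the most counts per length, with 43.4 ± 10.1 CPM in T98G PEPD-OE, 53.5 ± 10.9 CPM in T98G NC, 89.1 ± 26.4 CPM in U251 PEPD-OE and 86.5 ± 14.2 CPM in U251 NC (SD, n = 3 each).

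NDUFC1 and NDUFB4 differed between the lines in opposite directions. NDUFC1, a small subunit of the membrane arm, had 88.8, 70.9 and 55.2 CPM in T98G PEPD-OE, against 119, 78.0 and 93.6 CPM in T98G NC. Its U251 values were 52.5, 50.9 and 46.7 CPM in PEPD-OE, against 29.2, 33.7 and 37.2 CPM in NC. The T98G groups overlapped, and every U251 PEPD-OE library exceeded every U251 NC library. Its log2 fold change was -0.40 (adjusted p = 0.0864, SE 0.18) in T98G and 0.58 (adjusted p = 0.0954, SE 0.23) in U251, neither of them called, and the difference between the lines was -0.98 (adjusted p = 0.00574, SE 0.29). With DESeq2 the difference was not called (adjusted p = 0.0841), and over all alternatives its adjusted p ran from 0.00236 to 0.0841. In T98G alone NDUFC1 was called lower without the first PEPD-OE library (-0.58, adjusted p = 0.0323, edgeR) or the second NC library (-0.55, adjusted p = 0.0358, edgeR).

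NDUFB4, also of the membrane arm, had 41.5, 37.7 and 39.98 CPM in T98G PEPD-OE, against 24.5, 32.7 and 32.8 CPM in T98G NC. In U251 it had 26.3, 37.0 and 48.7 CPM in PEPD-OE, against 65.3, 48.7 and 47.1 CPM in NC. The T98G groups were separate, and the U251 groups overlapped. The change was a log2 fold change of 0.37 (adjusted p = 0.291, SE 0.26) in T98G and -0.49 (adjusted p = 0.165, SE 0.22) in U251, neither called. The difference between the lines was 0.86 (adjusted p = 0.0457, SE 0.34), and this call was lost in 11 of 18 alternatives, with adjusted p-values from 0.0128 to 0.227. They included leaving out any single T98G library, the first or second U251 PEPD-OE library or the first U251 NC library.

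Of the 8 assembly factors with NDUFAF names, 2 were tested and neither passed in either line, with 0 also at an unadjusted p under 0.05 and by DESeq2. For all tested genes 17.6% rose and 14.7% fell in T98G, and 4.13% and 4.38% in U251. NDUFAF2, which helps to build complex I, had 55.2 ± 13.1 CPM in T98G PEPD-OE, 69.6 ± 9.14 CPM in T98G NC, 51.6 ± 4.50 CPM in U251 PEPD-OE and 47.2 ± 4.71 CPM in U251 NC (SD, n = 3 each). On the log2 scale the change was -0.36 (adjusted p = 0.171, SE 0.20) in T98G and 0.13 (adjusted p = 0.808, SE 0.21) in U251.

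Complex II is wholly nuclear encoded, and SDHA and SDHB were the 2 of its 4 genes tested. SDHB, the iron-sulfur subunit, had 1.43, 7.55 and 13.8 CPM in T98G PEPD-OE, against 12.3, 12.6 and 13.4 CPM in T98G NC. It had 7.30, 13.9 and 14.5 CPM in U251 PEPD-OE, against 12.8, 4.99 and 6.20 CPM in U251 NC. These values rest on 1 to 14 counts in a library. Neither SDHB, with a log2 fold change of -0.73 in T98G and 0.59 in U251, nor SDHA, the flavin subunit, with 0.22 in T98G and -0.66 in U251, passed the test, at an unadjusted p under 0.05 or by DESeq2 either. SDHC held 74 counts in all. CFAP126, a gene whose exons lie wholly inside those of SDHC on the other strand, held 111 counts, with a log2 fold change of 1.52 in T98G (adjusted p = 0.000419, SE 0.37, edgeR) and a difference between lines of 2.50.

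Of the 9 nuclear complex III genes, 6 were tested. All 6 log2 fold changes were below 0 in U251, from -0.79 to -0.28, and they ran from -0.56 to 0.16 in T98G. Of all 8773 tested genes, 4323 were below 0 in U251. UQCRB, a small subunit next to the ubiquinone site, was the one that fell in U251 (GRCh38 chromosome 8, 96225920 to 96235634, minus strand). It had 33.6, 39.3 and 46.7 CPM in U251 PEPD-OE, against 78.1, 56.2 and 75.7 CPM in U251 NC. In T98G it had 53.0, 69.4 and 67.6 CPM in PEPD-OE, against 59.3, 57.9 and 53.5 CPM in NC. The U251 groups were separate and the T98G groups overlapped. Its log2 fold change was -0.79 (adjusted p = 0.00395, SE 0.20) in U251 and 0.16 (adjusted p = 0.592, SE 0.21) in T98G, and the difference was 0.95 (adjusted p = 0.00663, SE 0.29). The U251 call held in all 18 alternatives, with adjusted p-values from 0.00200 to 0.0499. With DESeq2 the difference was not called (adjusted p = 0.0767), and over all alternatives its adjusted p ran from 0.00310 to 0.0767. UQCRB-AS1, on the other strand, held 5 counts against 526.

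UQCRH, the hinge protein that helps cytochrome c bind, had the most counts per length of the complex III genes. It had 153, 168 and 154 CPM in T98G PEPD-OE, against 166, 151 and 162 CPM in T98G NC. It had 64.2, 74.0 and 60.2 CPM in U251 PEPD-OE, against 92.1, 73.6 and 76.9 CPM in U251 NC. The T98G values were above the U251 values in every library, and neither line's groups were called different. The fitted log2 fold change was -0.0051 (adjusted p = 0.988, SE 0.14) in T98G and -0.29 (adjusted p = 0.338, SE 0.17) in U251. UQCRHL, a near-identical copy, held 47 counts against 1030 under UQCRH, so reads could be split between them.

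Of the 11 widely expressed nuclear genes of complex IV, 10 were tested and none passed in either line. Among all tested genes 17.6% rose and 14.7% fell in T98G, and 4.13% and 4.38% in U251. In U251 all 10 log2 fold changes were below 0, from -1.02 to -0.11, with a median of -0.47, where 4323 of all 8773 tested genes were below 0. Of the 10, 3 had an unadjusted p under 0.05, against 886 of all 8773 tested genes that were lower at that threshold. DESeq2 called none of the 10. In T98G they ran from -0.25 to 0.86, with none at an unadjusted p under 0.05 and none by DESeq2. COX6B1, at the contact of the dimer, had the most counts per length. It had 30.1, 27.2 and 26.2 CPM in T98G PEPD-OE, against 24.5, 31.5 and 30.4 CPM in T98G NC. It had 26.3, 23.1 and 48.7 CPM in U251 PEPD-OE, against 59.5, 52.4 and 47.1 CPM in U251 NC, and the third U251 PEPD-OE library lay inside the range of NC. The change was a log2 fold change of -0.077 (adjusted p = 0.869, SE 0.29) in T98G and -0.66 (adjusted p = 0.0505, SE 0.23) in U251.

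The 8 complex IV isoforms of limited tissues and related genes had too few counts to be tested. COX4I2, COX6A2, COX7B2 and COX8C were at 0 counts in all 12 libraries, where 3 counts would be 0.327 CPM of the summed totals. COX6B2 had 1 count and COX7A1 had 2. Their widely expressed partners had 726 counts for COX4I1, 467 for COX6A1, 218 for COX7B, 126 for COX8A, 336 for COX6B1 and 134 for COX7A2. COX7A2L, which joins complexes into larger assemblies, had 87 counts. NDUFA4L2, known as a hypoxia-induced gene, had 37 counts against 195 under NDUFA4, and SHMT2 on the strand opposite NDUFA4L2 held 376. Such limits cover counting error only.

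Of the 19 nuclear complex V genes, 15 were tested. In the catalytic F1 part all 5 were tested and none passed, with log2 fold changes from -0.29 to 0.31 in T98G and from -0.37 to -0.062 in U251. At an unadjusted p under 0.05 there was none of the 5 in either line, nor by DESeq2. The shares of all tested genes called were 17.6% higher and 14.7% lower in T98G, and 4.13% and 4.38% in U251. ATP5F1B, the catalytic beta subunit, had the most counts per length of the F1 part, with 82.6 ± 12.9 CPM in T98G PEPD-OE, 101 ± 10.5 CPM in T98G NC, 66.4 ± 14.8 CPM in U251 PEPD-OE and 70.6 ± 5.42 CPM in U251 NC (SD, n = 3 each). ATP5ME, of the membrane part, had the most of all complex V genes, with 40.5 ± 6.96 CPM in T98G PEPD-OE, 44.6 ± 13.9 CPM in T98G NC, 60.6 ± 9.71 CPM in U251 PEPD-OE and 79.3 ± 9.14 CPM in U251 NC (SD, n = 3 each). MYL5 on its other strand held 192 counts against 534. ATP5IF1, the inhibitor protein that stops the enzyme from running backwards, had a log2 fold change of 0.064 (adjusted p = 0.892, SE 0.28) in T98G and -0.32 (adjusted p = 0.423, SE 0.21) in U251.

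ATP5PD, a subunit of the stalk that holds the enzyme's head still, was the second nuclear member that fell in U251 (GRCh38 chromosome 17, 75038863 to 75046985, minus strand). It had 42.3, 41.6 and 36.3 CPM in U251 PEPD-OE, against 65.3, 67.4 and 67.0 CPM in U251 NC. In T98G it had 43.0, 54.3 and 51.0 CPM in PEPD-OE, against 45.0, 27.7 and 37.7 CPM in NC. The U251 groups were far apart and the T98G groups overlapped slightly. Its log2 fold change was -0.74 (adjusted p = 0.01, SE 0.20) in U251 and 0.46 (adjusted p = 0.126, SE 0.24) in T98G. The difference between the lines was 1.20 (adjusted p = 0.00139, SE 0.31), the highest of the nuclear members called, and it held in all 17 alternatives. The U251 call was lost without the third U251 PEPD-OE library (adjusted p = 0.0586, edgeR) and with DESeq2 (adjusted p = 0.0512), and over all alternatives the adjusted p ran from 0.00693 to 0.0586. KCTD2 on the other strand held 150 counts against 442.

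**Figure D4:**
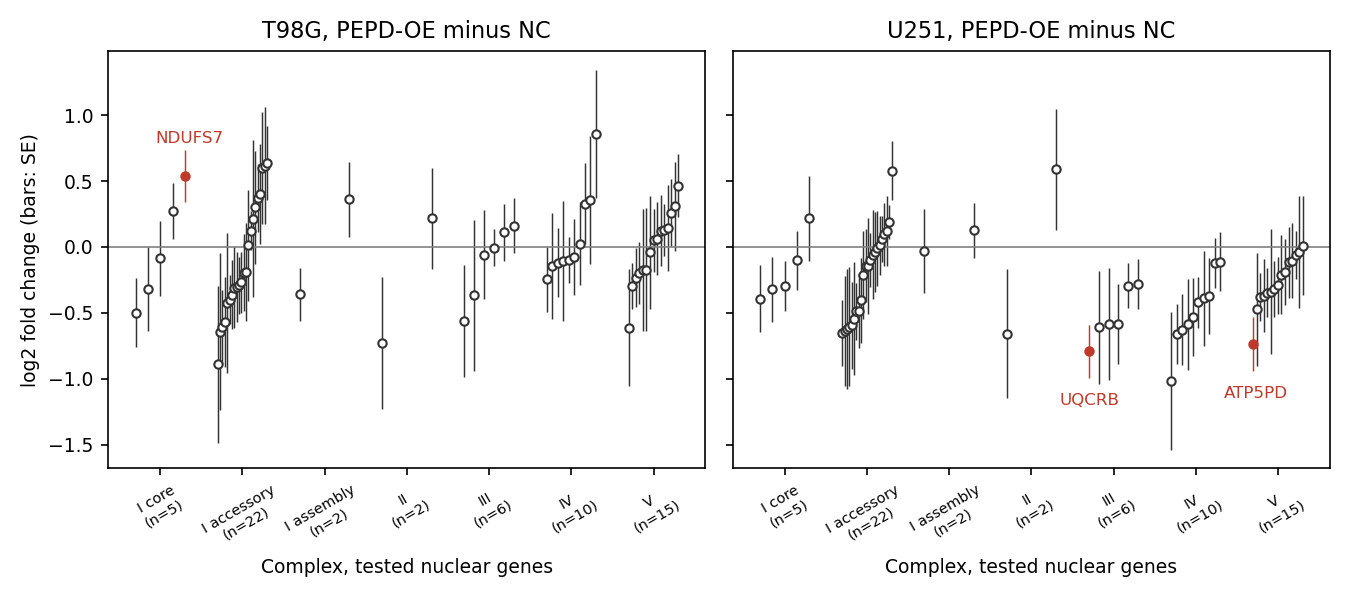
Log2 fold change, PEPD-OE minus NC, of the 62 tested nuclear members in T98G (left) and U251 (right), grouped by complex and ordered by value within it. Whiskers are SEs, and red filled points have an adjusted p under 0.05. In T98G NDUFS7 alone is filled, and in U251 UQCRB and ATP5PD are, while all tested members of complexes III and IV lie below 0 in U251.

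The NC cells of the lines, compared without PEPD over-expression, differed in 33 nuclear and 2 mitochondrially encoded members. Of the 62 nuclear members tested, 11 were higher and 22 lower in T98G NC than in U251 NC, where edgeR called 24.4% of all tested genes higher and 24.3% lower. By DESeq2 6 were higher and 8 lower, against 1350 and 1406 of all 8773 tested genes. The groups did not overlap for 11 higher and 25 lower members, as for 27.7% and 27.4% of all tested genes. Of the 13 mitochondrially encoded genes none was called higher and 2 were lower, MT-CO1 with a log2 fold change of -0.23 (adjusted p = 0.0173, SE 0.084) and MT-ATP8 with -0.33 (adjusted p = 0.00146, SE 0.092). None was higher at an unadjusted p under 0.05 or by DESeq2 either, but 1 was called higher without the third T98G NC library. Without the first or the third T98G NC library, or the first or the third U251 NC library, 1 was called lower in place of 2.

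The examples given here for the NC cells were chosen after their values were seen. In the F1 part of complex V, ATP5F1A, the alpha subunit, had 60.01 ± 1.53 CPM in T98G NC and 25.8 ± 9.85 CPM in U251 NC (SD, n = 3 each), a log2 fold change of 1.22 (adjusted p = 9.65e-06, SE 0.25). ATP5F1E, the epsilon subunit, went the other way, with 30.5 ± 3.63 CPM in T98G NC and 79.6 ± 3.90 CPM in U251 NC (SD, n = 3 each), a log2 fold change of -1.38 (adjusted p = 2.96e-08, SE 0.22). HAUS1, opposite ATP5F1A, held 23 counts against 355, and TUBB1, opposite ATP5F1E, held 381 against 487.

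UQCRH had 166, 151 and 162 CPM in T98G NC, against 92.1, 73.6 and 76.9 CPM in U251 NC, a log2 fold change of 0.97 (adjusted p = 2.22e-08, SE 0.15). NDUFC1 had the highest log2 fold change of the nuclear members tested, 1.50 (adjusted p = 1.74e-10, SE 0.21). At the other end were NDUFA3 and COX7A2, a complex I and a complex IV subunit, at -1.69 and -1.63. NDUFA3 had 7.38 ± 2.03 CPM in T98G NC and 24.7 ± 6.15 CPM in U251 NC (SD, n = 3 each), with TFPT opposite it at 159 counts against 128.

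Against these shares over all tested genes, 24.4% higher and 24.3% lower, the members are given by complex. Of the complex I accessory subunits, 10 of the 22 tested were lower and 4 higher in T98G NC, and none of the 5 core subunits passed, at an unadjusted p under 0.05 or by DESeq2 either. Of the 10 tested complex IV genes 5 were lower and 1, COX4I1, higher. Of the 15 of complex V, 4 were higher and 6 lower. Without the third T98G NC library 7 nuclear members were called higher in place of 11.

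**Figure D5:**
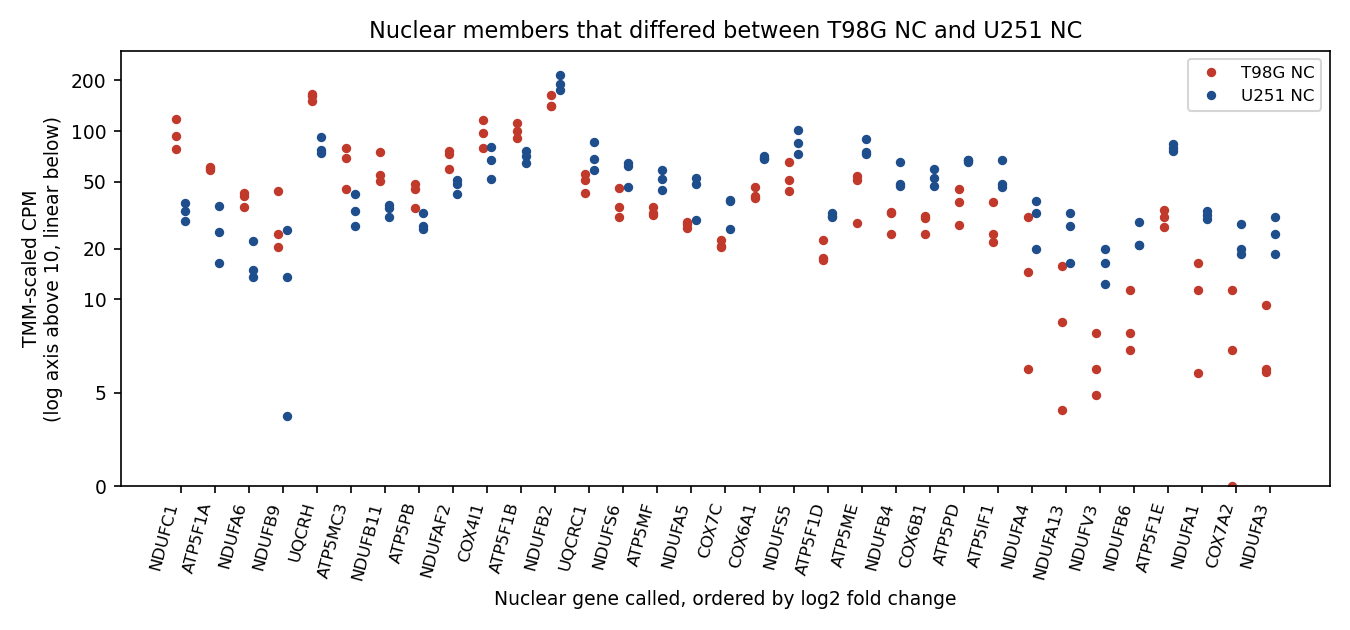
TMM-scaled CPM of the 33 nuclear members called different between T98G NC (red) and U251 NC (blue), with 3 libraries each, ordered from the highest to the lowest log2 fold change. The axis is logarithmic above 10 and linear below. The 11 at the left are higher in T98G NC and the 22 at the right are lower.

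Other genes that serve the respiratory chain are given by list, beside 17.6% of all tested genes called higher and 14.7% lower in T98G, and 4.13% higher and 4.38% lower in U251. Nothing particular to the lists is read from these counts. Of 26 tested assembly factors and carriers outside the name rule, 4 rose and 5 fell in T98G (15.4% and 19.2%), with COX20, COX15 and TTC19 the 3 of lowest p. COX15, which makes the heme of complex IV, had 272 ± 15.6 CPM in T98G PEPD-OE and 127 ± 11.5 CPM in T98G NC (SD, n = 3 each), a log2 fold change of 1.09 (adjusted p = 1.24e-11, SE 0.14). TTC19, a complex III factor, had 185 ± 5.23 CPM in T98G PEPD-OE and 87.1 ± 5.98 CPM in T98G NC, a log2 fold change of 1.08 (adjusted p = 1.34e-09, SE 0.15), with ZSWIM7 opposite it at 527 counts against 1122. COX20 had 1.25 (adjusted p = 5.77e-27, SE 0.088), with HNRNPU opposite it at 22388 counts against 13203. In U251 none of the 26 passed, 1 was higher and 1 lower at an unadjusted p under 0.05, and DESeq2 called none.

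Of 19 tested genes of mitochondrial DNA upkeep, transcription and RNA handling, 4 rose and 5 fell in T98G (21.1% and 26.3%), and 2 rose and none fell in U251 (10.5% and 0%). SSBP1, which binds single-stranded mitochondrial DNA, had 49.5 ± 7.42 CPM in T98G PEPD-OE and 101 ± 11.8 CPM in T98G NC (SD, n = 3 each), a log2 fold change of -1.06 (adjusted p = 1.33e-06, SE 0.19). WEE2-AS1 on its other strand was at 0 counts. MTERF2 had 0.63 (adjusted p = 1.16e-09, SE 0.089) and MTERF4 0.92 (adjusted p = 9.38e-05, SE 0.20) in T98G, with TMEM263 at 504 counts opposite MTERF2 and SNED1 at 885 opposite MTERF4. In U251 the 2 that rose were LRPPRC, which stabilises mitochondrial messenger RNA, with 1.17 (adjusted p = 0.0152, SE 0.34), and POLG, the mitochondrial DNA polymerase, with 0.37 (adjusted p = 0.0249, SE 0.11) and FANCI at 1420 counts on its other strand. At an unadjusted p under 0.05 there was 1 lower in U251, and DESeq2 called none.

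Of 9 tested regulators of mitochondrial biogenesis, GABPA fell in T98G, with 55.2 ± 4.63 CPM in PEPD-OE and 91.7 ± 14.4 CPM in NC (SD, n = 3 each), a log2 fold change of -0.75 (adjusted p = 0.000906, SE 0.19). GABPA lies opposite the member ATP5PF, which held 114 counts against 585. In U251 SIRT1 rose by 1.86 (adjusted p = 0.00652, SE 0.49), and DESeq2 called neither it nor any other of the 9 there. SIRT1 held 85 counts in all, with 16.2 ± 5.19 CPM in U251 PEPD-OE and 4.46 ± 1.89 CPM in U251 NC (SD, n = 3 each). The NC level was within the 3.25 to 6.46 CPM that 3 counts correspond to. Of 50 tested mitochondrial ribosomal proteins, 4 rose and 6 fell in T98G, below the shares of 17.6% and 14.7% over all tested genes. The 50 had a median log2 fold change of -0.38 with 37 below 0, where 4367 of all 8773 tested genes were below 0. None of the 50 rose and 2 fell in U251, where 2 were higher at an unadjusted p under 0.05 and none by DESeq2. The 3 of lowest p in T98G were MRPS22, MRPL15 with -1.93 (adjusted p = 0.000254, SE 0.45) and MRPL54 with -1.73 (adjusted p = 0.00489, SE 0.52). In T98G PEPD-OE MRPL15 had 5.75 CPM and MRPL54 had 4.33 CPM, near the level of 3 counts. MRPS22 passed in both lines, with 0.69 (adjusted p = 1.79e-15, SE 0.073) in T98G and -0.24 (adjusted p = 0.0202, SE 0.074) in U251, and COPB2 opposite it held 1861 counts against 27268. The other that fell in U251 was MRPL28, with -0.92 (adjusted p = 0.0284, SE 0.29). Of 14 citrate cycle enzymes, 2 rose and 3 fell in T98G, among them SUCLG2, a subunit of succinyl-CoA ligase, with 1.11 (adjusted p = 0.00584, SE 0.34), and IDH2, the mitochondrial isocitrate dehydrogenase, with 0.64 (adjusted p = 0.00952, SE 0.21). In U251 1 of the 14 rose, FH with 1.34 (adjusted p = 0.00246, SE 0.33), and none fell, with 2 lower at an unadjusted p under 0.05 and none by DESeq2.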

How the data were processed

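RNA-seq counts of 12 libraries in 4 groups of 3 were used. Per the labels, polyadenylated RNA was made into strand-marked libraries and sequenced in pairs. Per the submitters' processing notes, FastQC, fastp, HISAT2, Subread and featureCounts were used with GRCh38; neither versions nor annotation release nor strand setting could be read from them. The values deposited by the authors are raw read counts per gene, with 464056 to 924204 per library, so that 3 counts correspond to 3.25 to 6.46 CPM.

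Genes were filtered with edgeR's filterByExpr (minimum count 10) and scaled by TMM. The 4 groups were fitted together with edgeR 4.0.16 (R 4.3.3, limma 3.58.1; glmQLFit and glmQLFTest, 8 residual degrees of freedom), with p-values adjusted by Benjamini-Hochberg over all 8773 genes tested. The SE of a log2 fold change was derived from the same fit. It is the absolute log2 fold change over the square root of the test's F statistic. Contrasts taken were PEPD-OE against NC within each line, the difference between these, and T98G NC minus U251 NC. The contrasts share libraries. Alternatives were other scalings, no filter, a replicate block, each line alone, no genes with exon overlap across strands, each library left out, and DESeq2 1.42.0. Shares of counts were compared by exact permutation of libraries. The fit was tested on simulated data. Positions and exon lengths come from GENCODE release 29 (GRCh38).

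The members and gene lists were chosen with earlier results of these data known. All 13 mitochondrially encoded genes, the nuclear members called in either line or in the difference, the member of each complex with most counts per length, and the isoforms are named. From each list of other genes up to 3 called genes of lowest p are named. One result under that rule is not reported here. The shares of MT-ND6, the nuclear members and the sum without MT-ND6 were added after seeing the data. Intervals and floors cover counting error only.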

Additional observations from a re-analysis of the deposited data

Results flagged for a closer look

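For 16 genes the T98G change (PEPD-OE minus NC) differed from the U251 change by the test of the difference itself (edgeR, adjusted p under 0.05). The difference on the log2 scale was 1.75 for MT-ND6, 1.74 for MT-CYB, 1.38 for MT-ND2, 1.17 for MT-ND1 and 1.13 for MT-CO3. It was 1.02 for MT-CO2, 1.01 for MT-CO1, 0.66 for MT-ND4L and 0.53 for MT-ATP8. The ribosomal RNA genes had 2.34 for MT-RNR2 and 1.48 for MT-RNR1. Among nuclear members it was 1.20 for ATP5PD, 0.95 for UQCRB, 0.86 for NDUFB4 and 0.84 for NDUFS7, while NDUFC1 had -0.98. The genes AC005329.1 and AC005329.3 lie opposite NDUFS7. By the same test the difference was 0.82 for AC005329.1 (adjusted p = 0.00464, edgeR) and 0.89 for AC005329.3 (adjusted p = 0.218, edgeR). Their part in the difference of NDUFS7 was not tested.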

How the results depend on the processing

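No result reversed its direction under any alternative run among those with a call. Of the counts and shares, 279 values stayed within 1.5 times or within the replicate spread and 33 moved; for single genes, 1024 kept their side of the threshold, 39 gained a call and 47 lost one. The cause was not tested. Leaving out genes that share exon bases across strands removes 24 of the 62 tested nuclear members, among them NDUFS7, UQCRB and ATP5PD. Counts in that setting therefore cannot show whether a call of these members is lost. In T98G 0 nuclear members were called higher, in place of 1, with no filter, without genes that share exon bases across strands, and with DESeq2, and 1 was called lower with each line alone. In U251 1 nuclear member was called lower, in place of 2, without those genes and with DESeq2. Without those genes it was neither UQCRB nor ATP5PD, as both were removed. For the difference 1 nuclear member was called higher, in place of 4, without those genes and with DESeq2, and DESeq2 called 0 lower. Between the NC cells 1 mitochondrially encoded gene was called higher with no filter, DESeq2 called 1 lower, 4 nuclear members were higher without those genes and 6 with DESeq2, and 8 were lower with DESeq2. Leaving out 1 library at a time gave, for mitochondrially encoded genes, 6 to 10 higher in T98G, 4 to 10 lower in U251, 7 to 13 higher in the difference, and 0 to 1 higher and 1 to 3 lower between NC cells. For nuclear members it gave 0 to 1 higher and 0 to 2 lower in T98G, 2 to 3 lower in U251, 2 to 6 higher and 1 to 2 lower in the difference, and 7 to 11 higher and 16 to 23 lower between NC cells. The log2 ratio of the share ran from 0.49 to 0.65 in T98G and from -0.45 to -0.13 in U251. Over all genes, the calls were 2834 in T98G (1644 with DESeq2, 1138 without genes overlapping across strands), 746 in U251 (375 and 237; 440 to 742 with 1 library left out), 2427 for the difference (1359 and 912) and 4273 between NC cells (1844 without overlapping genes).

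Libraries with the same replicate number did not deviate together (correlations from -0.042 to 0.058 over all genes), so the numbers were not taken to pair them. For the share of the 13 genes, however, replicate 1 was the highest library in all 4 groups, at 9.32% in T98G PEPD-OE, 6.01% in T98G NC, 5.19% in U251 PEPD-OE and 5.17% in U251 NC. With the replicate number as a block, 9 mitochondrially encoded genes were lower in U251 and 1 was higher between NC cells; 12 were higher in T98G and 13 in the difference. Low counts limit the nuclear members: at a median of 21 counts a library, a change that was not called may have been missed. The parts of depth and of the strand setting in these low counts were not tested.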
